A study of Mus musculus with 6 samples.

Results

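Fc gamma receptors bind the constant part of IgG antibodies and let macrophages take up antibody-coated particles. The 7 genes described here were chosen by name: the activating receptors Fcgr1, Fcgr3 and Fcgr4, the inhibitory receptor Fcgr2b, the signalling chain Fcer1g, the IgG salvage receptor Fcgrt and the Fc receptor-like gene Fcrls. All 7 were found among the 28822 genes of the count table, and all 7 were expressed enough to be tested. The choice used no measured value of its own, but it was made with earlier results of these data known.

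The libraries came from cells labelled as mouse bone marrow-derived macrophages together with HT22, a mouse hippocampal neuronal line. Per the series' design text, the sequenced cells sat in the upper insert of a Transwell, above HT22 cells kept for 2 h under oxygen-glucose deprivation. The design text allows BV2 microglia or macrophages in the insert, and the title names macrophages. Both groups shared the co-culture and the deprivation of the HT22 cells. They differed in the agent, which was BW723C86, an agonist of the serotonin receptor 5-HT2B (3 samples), or its vehicle DMSO (3 samples). The labels used here state neither strain, age, dose nor treatment time, and do not say whether replicates are separate cultures or animals. The p-values therefore measure the spread among these libraries alone, and that spread may be technical.

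The activating receptors carry no signalling motif of their own and depend on a dimer of the Fc receptor gamma chain, the product of Fcer1g. This chain bears an immunoreceptor tyrosine-based activation motif (ITAM), which Src family kinases phosphorylate and to which the kinase Syk then binds. Fcgr2b instead carries an inhibitory motif (ITIM) in its own tail, which recruits the phosphatase SHIP1, and the balance between both kinds of receptor sets how strongly a macrophage responds to immune complexes. Fcgrt encodes the neonatal Fc receptor, which pairs with beta-2 microglobulin inside the cell and returns IgG to the surface instead of letting it be degraded. Fcrls encodes a relative of these receptors with a scavenger receptor domain and is known as an abundant transcript of microglia.

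Fcgr2b and Fcgr3 are so alike in their extracellular part that short reads from it are hard to tell apart, and the results below turn on these 2 genes. In a local alignment of their coding sequences (GENCODE M21 transcripts Fcgr2b-201 and Fcgr3-201), 491 of 509 aligned positions were identical (96.5%). The longest identical run was 129 bases. The coding stretch around that run, bases 248 to 487 of the Fcgr2b coding sequence and 233 to 472 of that of Fcgr3, is shown 5′ to 3′ with the 5 differing bases in capitals.
Fcgr2b: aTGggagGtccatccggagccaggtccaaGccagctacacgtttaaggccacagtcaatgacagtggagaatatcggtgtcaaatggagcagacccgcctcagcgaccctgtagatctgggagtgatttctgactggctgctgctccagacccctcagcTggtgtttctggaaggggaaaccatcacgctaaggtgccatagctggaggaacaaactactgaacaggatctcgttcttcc
Fcgr3: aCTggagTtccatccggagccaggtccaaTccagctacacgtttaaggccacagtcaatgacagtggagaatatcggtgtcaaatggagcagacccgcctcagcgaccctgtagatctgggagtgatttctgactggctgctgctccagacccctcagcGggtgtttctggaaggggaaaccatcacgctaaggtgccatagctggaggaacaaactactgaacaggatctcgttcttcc

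No window of 150 bases was shared between any of the 7 genes' reference transcripts. Of all windows of 100 bases, 1.28% of those in the Fcgr2b transcript and 3.53% of those in the Fcgr3 transcript were shared. For windows of 50 bases the shares were 4.75% and 12.8%. These are shares of window positions, and the bases that such windows cover are a larger part of each transcript. Fcgr4, which lies between Fcgr2b and Fcgr3 on chromosome 1, shared no run longer than 14 bases with Fcgr3. The labels do not say how counting divided ambiguous reads between Fcgr2b and Fcgr3, and the part of this step in their values was not tested.

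With BW723C86 the mix of Fc gamma receptor transcripts differed, while their summed CPM overlapped between the groups. That sum is not corrected for transcript length. Fcgr3 rose 1.22-fold, Fcgr2b fell to 0.808 of its DMSO level and Fcgr4 to 0.547, and Fcgr1 and the chain gene Fcer1g did not pass the test. Outside the receptor complex, Fcrls rose 2.10-fold and Fcgrt 1.46-fold. In all, 3 members rose, 2 fell and 2 did not pass the test (edgeR's quasi-likelihood test, Benjamini-Hochberg adjusted p under 0.05 over 15567 genes). The share of all tested genes past this threshold was 42%, with 21.3% higher and 20.7% lower. Of the called genes 50.8% were higher, and 38.5% when libraries were scaled by their totals only. Levels are given as CPM, counts scaled by the TMM-adjusted library total. Among the 10225 genes with at least 5 CPM in 3 libraries, a range that holds all 7 members, 55.4% were past the threshold. The share of members past the test, 71.4%, is a count of 5 of 7 genes and is given as a description. The median log2 fold change of the 7 was 0.07, against 0.00 over all tested genes, and the median absolute value was 0.31 against 0.27. Fcrls alone of the 7 passed with a change of at least 2-fold, as did 8.45% of all tested genes.

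**Figure D1:**
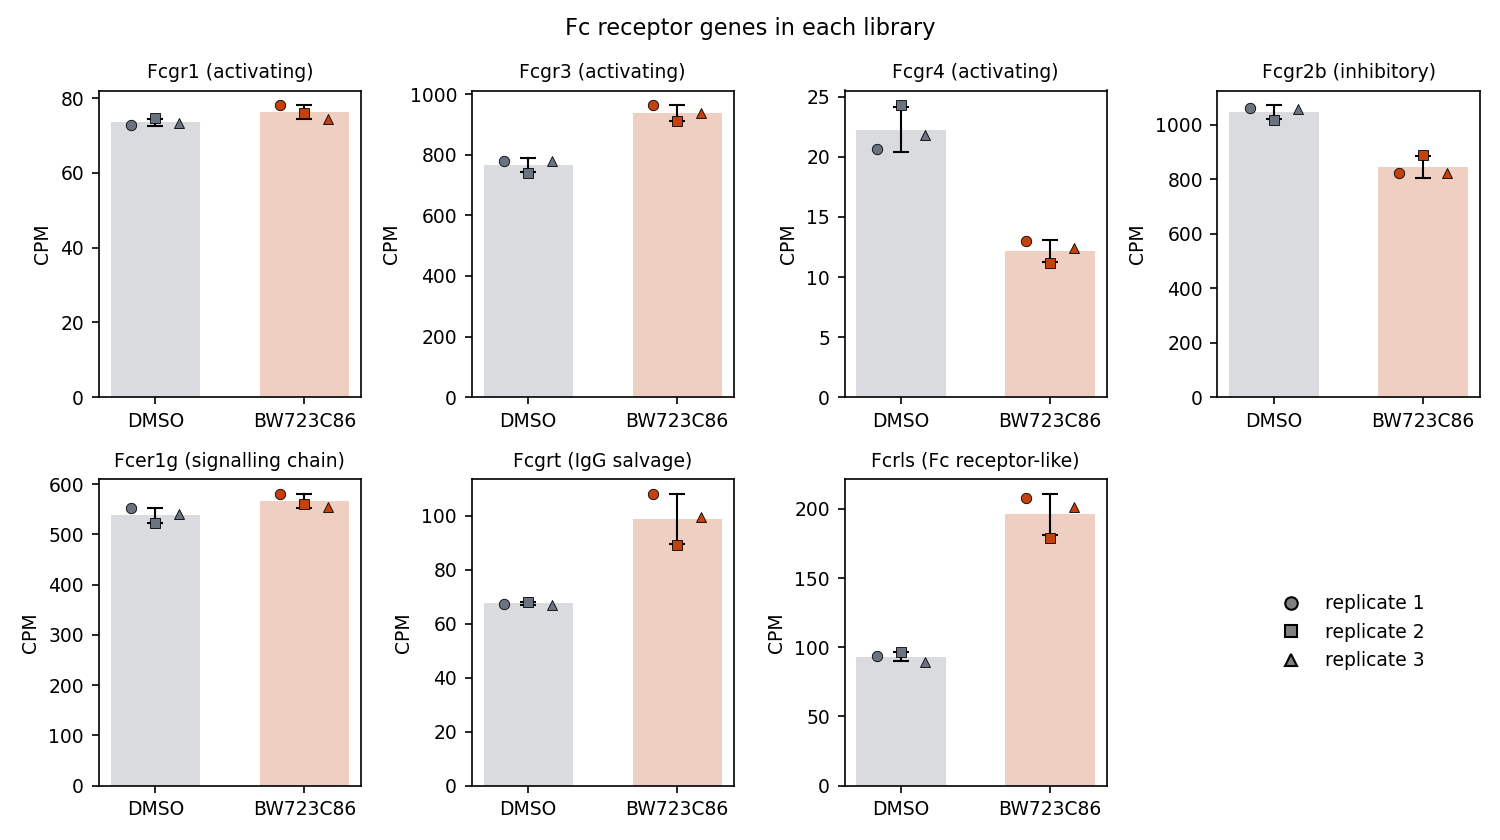
CPM of the 7 genes in each library, with the group mean as a bar from 0, the SD as an error bar (3 libraries per group) and each replicate as a point. Fcrls, Fcgrt and Fcgr3 stand higher and Fcgr2b and Fcgr4 lower with BW723C86 without overlap, while the Fcgr1 groups overlap.

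Total counts ran from 58841307 to 75931615 per library, and no member had fewer than 737 counts in any library. The reads behind a count are uncertain, so these counts do not give the counting noise. BW723C86 replicate 2 lay closest to the DMSO mean of the 3 treated libraries for 4 members, Fcgr3, Fcgr2b, Fcgrt and Fcrls. Replicate 3 did so for Fcgr1 and Fcer1g and replicate 1 for Fcgr4. With BW723C86 replicate 2 left out, the same 5 members passed. Macrophage markers were abundant, with a summed level of 37410 to 38260 CPM in DMSO and 32919 to 34123 CPM with BW723C86, most of it the lysozyme gene Lyz2. Of those 10 markers, which include Fcgr1, 5 rose, 4 fell and 1 did not pass. Dendritic cell markers also differed between the groups. Of 6 tested, 4 rose and 2 did not pass, with a sum of 507 to 518 CPM in DMSO and 2340 to 2492 CPM with BW723C86, most of it the integrin gene Itgax, which macrophages can also express. Itgax rose from 471 ± 6.70 to 2361 ± 79.0 CPM and the lectin gene Cd209a from 7.77 ± 0.208 to 30.8 ± 0.931 CPM (SD, n = 3). None of these markers was at 0 in all libraries, and their part in the receptor values was not tested. T and NK cell markers summed to 2.08 to 3.96 and 1.64 to 2.77 CPM in DMSO and BW723C86, with Trac at 0 throughout. Of 10 neuronal markers, 7 were in the count table and none was expressed enough to be tested. They summed to 0.401 CPM or less in every library, with Map2, Nefl and Dcx at 0 throughout. Whether HT22 cells express these markers was not tested, so the sum does not measure HT22 RNA.

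Among the activating receptors, Fcgr1 (ENSMUSG00000015947) encodes the high-affinity receptor, which binds single IgG molecules and is a standard surface marker of macrophages. It stood at 72.8, 74.6 and 73.4 CPM in DMSO replicates 1 to 3 and at 78.1, 76.1 and 74.5 CPM in BW723C86 replicates 1 to 3. The groups overlapped, since BW723C86 replicate 3 lay just below DMSO replicate 2. The log2 fold change was 0.05 (SE 0.05) and did not pass the test (adjusted p = 0.42 by edgeR).

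Fcgr3 (ENSMUSG00000059498) encodes a low-affinity receptor for immune complexes and was the most abundant activating receptor transcript in counts. It stood at 778, 740 and 780 CPM in the DMSO libraries and at 964, 912 and 937 CPM in the BW723C86 libraries. All 3 treated libraries lay above all 3 controls. The group means were 766 ± 22.4 and 937 ± 25.9 CPM (SD, n = 3), a log2 fold change of 0.29 (standard error, SE, 0.04, adjusted p = 0.00016 by edgeR). The change was small in size. When the test asked for more than a 1.2-fold change, Fcgr3 did not pass (adjusted p = 0.32), while 3 of the 7 members and 20.6% of all tested genes did.

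Fcgr4 (ENSMUSG00000059089), a receptor of intermediate affinity that is preferentially bound by IgG2a and IgG2b, moved the other way. Its levels were 20.7, 24.3 and 21.8 CPM in DMSO and 12.96, 11.1 and 12.4 CPM with BW723C86. No treated library reached the lowest control. The means fell from 22.3 ± 1.86 to 12.2 ± 0.933 CPM (SD, n = 3), or -0.87 on the log2 scale (SE 0.09, adjusted p = 5.1e-06 by edgeR). This was the strongest decrease of the 7 genes, in a transcript that made up 1.17% of the summed CPM of the 4 receptors in DMSO. Fcgr4 is also expressed by neutrophils and by a subset of monocytes. Of 7 tested neutrophil markers 7 fell, and their list summed to 251 to 261 CPM in DMSO and 33.4 to 37.4 CPM with BW723C86. Retnlg, on that list but not tested, was at 0 in the treated libraries and at 4, 11 and 0 counts in DMSO. All 7 monocyte markers fell as well, with sums of 3857 to 3910 and 1244 to 1360 CPM. In bulk samples fewer cells of a type and less RNA per cell cannot be told apart, and the part of these cell types in the Fcgr4 values was not tested.

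Fcgr2b (ENSMUSG00000026656), the inhibitory receptor, was lower with the agonist. It stood at 1063, 1015 and 1059 CPM in DMSO and at 821, 890 and 824 CPM with BW723C86. The highest treated library, replicate 2, lay below the lowest control. The means were 1046 ± 26.2 and 845 ± 39.0 CPM (SD, n = 3), or -0.31 on the log2 scale (SE 0.05, adjusted p = 0.00017 by edgeR). Like Fcgr3, it failed the test for more than a 1.2-fold change (adjusted p = 0.22). With BW723C86 replicate 2 left out, the log2 fold change was -0.36. Fcgr2b is the only classical Fc gamma receptor of B cells. The 7 B cell markers summed to 12.1 to 13.6 CPM in DMSO and 6.24 to 7.48 CPM with BW723C86, most of it Ighm. Of these markers, Cr2 was at 0 in the treated libraries and at 0, 0 and 12 counts in DMSO. The part of B cells in the Fcgr2b values was not tested. An antisense gene annotated over Fcgr2b, Gm38204, had 33 counts or fewer in every library, against at least 47069 for Fcgr2b.

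The 4 receptors together summed to 1934, 1854 and 1934 CPM in DMSO and 1876, 1889 and 1848 CPM with BW723C86. These groups overlapped (means 1907 ± 45.9 and 1871 ± 21.2 CPM, SD, n = 3, two-sided exact permutation p = 0.3). Their composition did not overlap. Fcgr2b made up 54.9%, 54.8% and 54.8% of the sum in the controls and 43.8%, 47.1% and 44.6% in the treated libraries. Fcgr3 made up 40.2%, 39.9% and 40.3% and then 51.4%, 48.3% and 50.7%. By counts, the most abundant receptor transcript was Fcgr2b in every DMSO library and Fcgr3 in every BW723C86 library. The sum, the shares and this order are not corrected for transcript length. In CPM per kb of the longest coding transcript, Fcgr3 lay above Fcgr2b in both groups. The means were 569 against 295 in DMSO and 696 against 238 with BW723C86. With median lengths the order changed as it did in counts.

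Expressed as a ratio within each library, the activating transcripts (Fcgr1, Fcgr3 and Fcgr4 summed) over Fcgr2b gave 0.820, 0.826 and 0.826 in DMSO and 1.28, 1.12 and 1.24 with BW723C86. The controls lay within a very narrow band and every treated library lay above it. The means were 0.824 ± 0.00355 and 1.22 ± 0.0840 (SD, n = 3), 1.48 times higher with the agonist (two-sided exact permutation p = 0.1, the smallest that 3 against 3 samples allow). A ratio within a library does not depend on the scaling between libraries. Both parts of the ratio moved: on the log2 scale the summed activating transcripts changed by 0.25 and Fcgr2b by -0.31. With Fcgr3 left out of the sum, the log2 difference of the ratio was 0.19, against 0.56 with it. Within the activating class the balance moved too, since Fcgr4 was at 0.0266, 0.0328 and 0.0280 of the Fcgr3 CPM in DMSO and 0.0134, 0.0122 and 0.0133 of it with BW723C86.

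**Figure D2:**
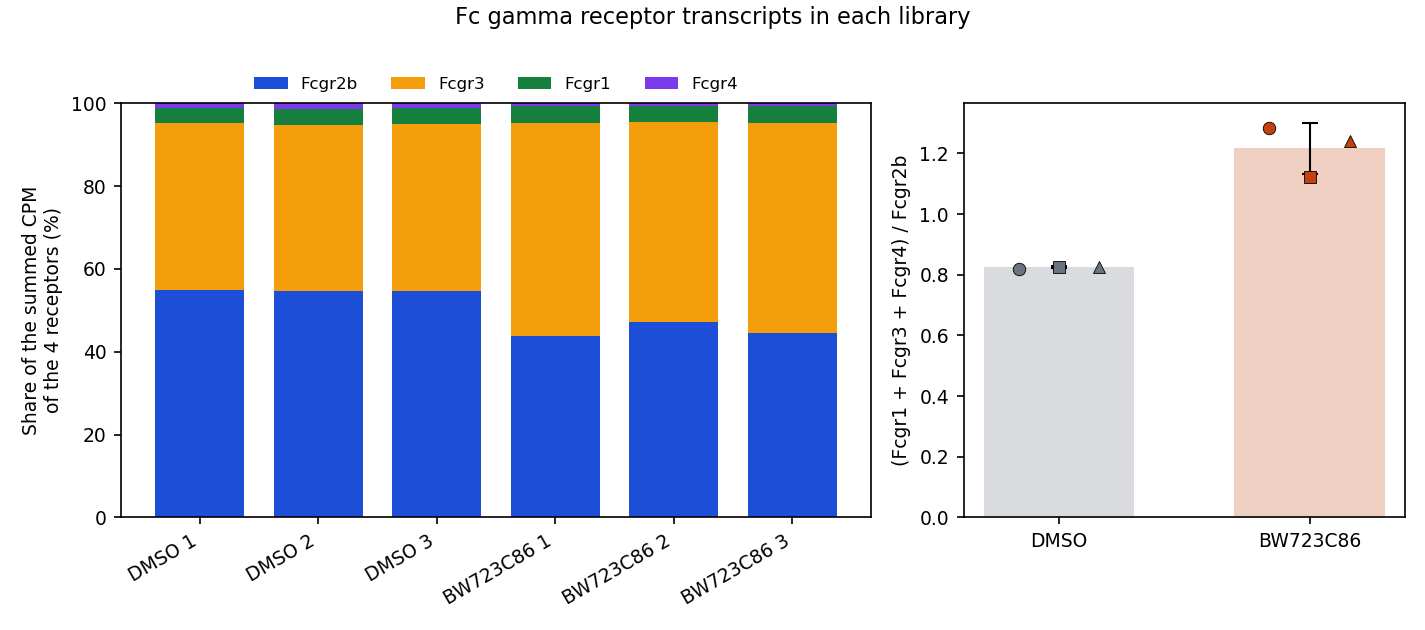
Left, share of each receptor in the summed CPM of Fcgr1, Fcgr2b, Fcgr3 and Fcgr4 for every library, in percent. Right, the ratio of activating transcripts to Fcgr2b, with group mean, SD and the 3 replicates as points. Fcgr2b holds about 55% of the sum in each DMSO library and 43.8% to 47.1% in the BW723C86 libraries.

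Fcer1g (ENSMUSG00000058715), the chain on which surface expression of the activating receptors depends, was nearly level. It stood at 552, 523 and 541 CPM in DMSO and at 581, 561 and 555 CPM with BW723C86. The treated libraries all lay above the controls, by a narrow margin. Groups did not overlap, in either direction, for 6 of the 7 members and for 52.3% of all tested genes. The log2 fold change was 0.07 (SE 0.04) and did not pass the test (adjusted p = 0.21 by edgeR). When libraries were scaled by their totals only, the log2 fold changes of Fcer1g and Fcgr1 were -0.00225 and -0.0227, also not past. Relative to the receptors that need it, the chain was lower: Fcer1g over the summed activating receptors was 0.633, 0.623 and 0.618 in DMSO and 0.551, 0.562 and 0.542 with BW723C86 (two-sided exact permutation p = 0.1, the smallest possible). That direction rests on Fcgr3. Against Fcgr1 and Fcgr4 alone, the log2 difference of this ratio was 0.19 in place of -0.18.

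Levels of different genes can be compared only per length of transcript. In CPM per kb of the longest annotated coding transcript, Fcer1g was highest in DMSO at 788 ± 21.7, followed by Fcgr3 at 569 ± 16.6 and Fcgr2b at 295 ± 7.40 (SD, n = 3). Fcrls (41.0 ± 1.51), Fcgrt (38.1 ± 0.299), Fcgr1 (28.4 ± 0.365) and Fcgr4 (17.7 ± 1.48) followed, far below Fcgr2b. The order of the 7 was the same with BW723C86, at 828 ± 20.1 for Fcer1g and 696 ± 19.2 for Fcgr3 for the next. No neighbours in this order overlapped in either group, and the closest were Fcrls, at 39.4 or more in every DMSO library, and Fcgrt, at 38.4 or less. The place of Fcgr2b depends on the transcript, since its 4 coding transcripts have a longest length of 3544 bases and a median of 1520. With median lengths it stood at 688 ± 17.3 CPM per kb in DMSO, above Fcgr3 at 574 ± 16.8, and at 556 ± 25.7 with BW723C86, below Fcgr3 at 702 ± 19.4.

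Fcgrt (ENSMUSG00000003420), the IgG salvage receptor, was higher with the agonist. Its levels were 67.4, 68.0 and 67.0 CPM in DMSO and 108, 89.2 and 99.4 CPM with BW723C86. The controls were nearly identical, and the treated libraries were more spread and all above them. The log2 fold change was 0.55 (SE 0.06, adjusted p = 1.3e-05 by edgeR), and it also passed the test for more than a 1.2-fold change (adjusted p = 0.00055). B2m, encoding the beta-2 microglobulin light chain that the neonatal Fc receptor shares with MHC class I molecules, rose from 2607 ± 21.3 to 4231 ± 220 CPM (log2 fold change 0.70, SE 0.05).

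Fcrls (ENSMUSG00000015852) had the largest change of the 7. It stood at 93.7, 96.4 and 89.6 CPM in DMSO and at 208, 179 and 201 CPM with BW723C86. Every treated library lay far above every control. The means were 93.3 ± 3.43 and 196 ± 15.0 CPM (SD, n = 3), or 1.07 higher on the log2 scale (SE 0.06, adjusted p = 1e-08 by edgeR), which ranked 298 of 15567 genes by p. Other microglia-associated genes did not share this direction as a list: of 7 tested, 4 fell. Tmem119, a marker of resident microglia, fell by 2.72 on the log2 scale, and the purinergic receptor gene P2ry12 by 0.95.

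**Figure D3:**
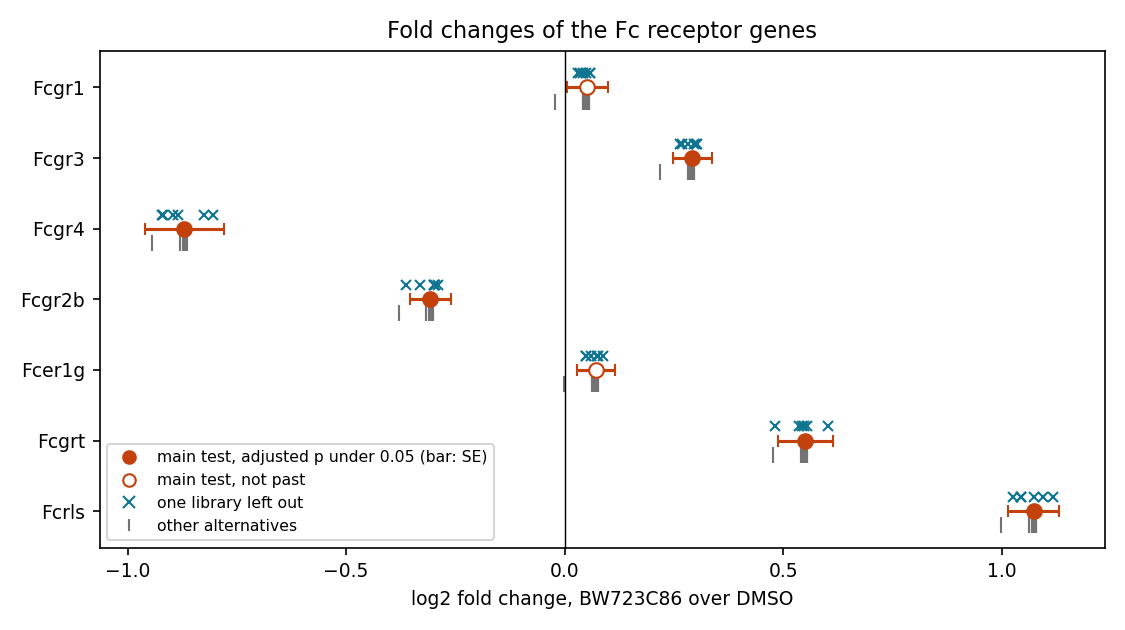
Log2 fold change of each gene, BW723C86 over DMSO, with the SE as a bar. Filled circles passed the test and open circles did not, crosses show the fits with a library left out, and ticks show the other alternatives. Fcgr3, Fcgr4, Fcgr2b, Fcgrt and Fcrls keep their side of 0 in each fit, while Fcgr1 and Fcer1g lie close to 0 and cross it when libraries are scaled by their totals only.

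The genes most like a member were sought by the Pearson correlation of log2 CPM over the 6 libraries, among 3652 other genes with a mean of at least 50 CPM. With 2 groups of libraries such a correlation mainly reflects the shared group difference. For Fcrls, the closest were Wfdc17, H2-T22 and Slc35f6, with r of 0.999829, 0.999718 and 0.999668, and 260 genes had r above 0.99. For Fcgr4, the closest were 6430548M08Rik, Rac2 and Pstpip1 (r of 0.997, 0.997 and 0.996), and 16 genes had r above 0.99. Fcer1g had few genes like it, with Dazap1 at 0.978, Gripap1 at 0.956 and AC124502.3 at 0.953.

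The promoters of the activating receptors are known for binding PU.1, the ETS factor of the myeloid lineage, and that of Fcgr1 also for a gamma-activated site, an element of the interferon gamma response. The RefSeq windows of 300 bases around each gene's start (build GRCm38.p6, not the build of the files) matched all 7 genes and were searched on both strands for the PU box GAGGAA and for TTCNNNGAA. The PU box was found in the windows of Fcgr1, Fcgr3, Fcgr4 and Fcrls, and in 28.3% of all 32851 windows. TTCNNNGAA was found in that of Fcgr1, and in 8.3% of all windows. The 120 bases before the start are shown for the 4 receptors, to set the inhibitory gene beside the activating ones, 5′ to 3′ on the strand of the gene, with matches in capitals (the PU box reads TTCCTC where it lies on the other strand).
Fcgr1, chr3:96293970-96294089, minus strand: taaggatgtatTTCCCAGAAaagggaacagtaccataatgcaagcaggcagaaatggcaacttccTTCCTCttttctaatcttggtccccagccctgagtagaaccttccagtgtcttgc
Fcgr3, chr1:171059404-171059523, minus strand: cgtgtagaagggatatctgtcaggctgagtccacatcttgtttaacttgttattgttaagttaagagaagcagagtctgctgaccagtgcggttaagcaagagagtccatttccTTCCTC
Fcgr4, chr1:171018806-171018925, plus strand: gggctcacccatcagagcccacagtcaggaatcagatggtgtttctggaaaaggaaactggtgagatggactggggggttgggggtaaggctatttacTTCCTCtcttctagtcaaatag
Fcgr2b, chr1:170976072-170976191, minus strand: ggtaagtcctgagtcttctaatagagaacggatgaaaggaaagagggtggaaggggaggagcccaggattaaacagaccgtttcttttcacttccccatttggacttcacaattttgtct

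The 3 receptors that share the PU box letters went different ways, with Fcgr3 higher, Fcgr4 lower and Fcgr1 not past the test. A match of letters is a description of the window and not evidence of binding. The genes of interferon gamma signalling, a classical inducer of Fcgr1, also went both ways: of 10 tested, 3 rose, 4 fell and 3 did not pass (median log2 fold change -0.13). The receptor chain gene Ifngr1 fell from 164 ± 1.57 to 118 ± 1.88 CPM and the transcription factor gene Irf1 from 38.0 ± 1.09 to 27.7 ± 1.01 CPM, while the guanylate-binding protein genes Gbp2 and Gbp3 rose by 0.52 and 0.40 on the log2 scale. Interleukin-4, which is known to raise Fcgr2b in macrophages, signals through genes of which 2 of 6 rose, 2 fell and 2 did not pass. Il4ra, its receptor, fell by 0.23 and the kinase gene Jak3 by 0.68, and Cish and Stat6 rose by 0.21 and 0.15 on the log2 scale.

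Downstream of the receptors, the kinases that phosphorylate and read the ITAM went both ways. Of 10 Src, Syk and Tec family kinase genes, 2 rose, 4 fell and 4 did not pass (median log2 fold change -0.09). Beside this and each other list, 42% of all tested genes were past the threshold, with a median of 0.00. Syk, the most abundant, was not past the threshold (364 ± 5.68 against 382 ± 12.3 CPM, DMSO first). Fyn, a Src family kinase, rose from 23.7 ± 1.18 to 59.8 ± 1.88 CPM, while the myeloid Src kinase gene Fgr fell from 150 ± 5.08 to 119 ± 10.6 CPM. Tec rose by 0.27 and Src fell by 0.30 on the log2 scale.

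Adaptors and lipid signalling enzymes, which carry the signal from Syk, were past the test for 14 of 19 genes, 9 higher and 5 lower (median -0.09). Pik3cd, the leukocyte catalytic subunit of phosphoinositide 3-kinase, rose from 298 ± 2.49 to 531 ± 24.7 CPM, and Pik3r5, a regulatory subunit of the gamma isoform, from 84.0 ± 1.75 to 138 ± 8.43 CPM. The adaptor gene Blnk rose from 8.35 ± 0.215 to 21.6 ± 0.903 CPM and the protein kinase C gene Prkcd from 418 ± 8.13 to 575 ± 1.96 CPM. Among 19 tested regulators of the actin cup that closes around an antibody-coated particle, 4 rose, 7 fell and 8 did not pass (median -0.05). The Rac GTPase genes split: Rac2 fell from 576 ± 11.9 to 427 ± 17.8 CPM and Rac1 rose from 363 ± 5.62 to 443 ± 10.7 CPM. The Rac exchange factor gene Vav2 rose by 0.76 and Actr2, of the ARP2/3 complex, fell by 0.33 on the log2 scale. Cdc42, the most abundant of these genes, fell by 0.13.

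Inhibitory enzymes and adaptors, the partners of the ITIM, were divided as well, with 4 of 11 higher, 4 lower and 3 not past (median -0.08). Inpp5d, which encodes the SHIP1 that Fcgr2b recruits, did not pass (log2 fold change 0.09, SE 0.04), and Ptpn6, encoding the phosphatase SHP-1, fell from 287 ± 2.49 to 234 ± 10.8 CPM. The docking protein genes Dok2 and Dok3 moved apart, Dok2 from 116 ± 4.37 up to 197 ± 25.0 CPM and Dok3 from 97.5 ± 5.20 down to 67.2 ± 6.98 CPM. Pag1, encoding an anchor of the kinase Csk, fell by 0.51 on the log2 scale. Inpp5d was named after its values were seen. Among 15 tested inhibitory receptors of the ITIM class other than Fcgr2b, 9 rose, 4 fell and 2 did not pass (median 0.23). Pecam1 fell from 17.4 ± 1.08 to 3.46 ± 0.566 CPM and Siglece, a sialic acid receptor, from 9.30 ± 0.295 to 2.30 ± 0.183 CPM. Pilra fell by 0.55 and Lair1, a collagen receptor, rose by 0.57 on the log2 scale. Lilrb4a, the most abundant, was not past the threshold (1403 ± 30.3 against 1496 ± 47.8 CPM, DMSO first).

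The gamma chain also serves other receptors, and these were divided. Of 6 tested, 3 rose, 2 fell and 1, Ms4a2, did not pass (median -0.36). That median lies between Ms4a2 (-0.95), with as few as 19 counts in a library, and Clec4n (0.23). Clec4e, which encodes the C-type lectin Mincle, fell from 82.0 ± 3.36 to 25.4 ± 2.96 CPM. Its neighbour in function Clec4d, encoding MCL, fell from 208 ± 3.02 to 105 ± 1.63 CPM. Clec4n, encoding Dectin-2, was the most abundant at 1616 ± 14.3 CPM in DMSO and rose to 1890 ± 54.6 CPM. Tarm1 and Pira2 rose by 0.61 and 0.50 on the log2 scale, and Pira2 is uncertain, since the Pira genes are near-identical copies. Mast cell and basophil markers, of cells that also use the gamma chain, summed to 57.0 to 63.9 CPM in DMSO and 13.5 to 15.4 CPM with BW723C86, most of it Cpa3. The part of such cells in the values above was not tested.

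The sister chain gene Tyrobp, encoding the ITAM protein DAP12, rose from 564 ± 50.0 to 693 ± 72.4 CPM (log2 fold change 0.30, SE 0.08). Of 8 tested genes of that chain, its receptors and the adaptor gene Hcst, 2 rose, 5 fell and 1, Hcst, did not pass (median -0.71). Besides Tyrobp, the receptor gene Trem2 rose, from 295 ± 13.5 to 461 ± 48.5 CPM. Trem1, an amplifier of inflammatory signals, fell from 91.6 ± 3.38 to 12.3 ± 0.672 CPM and Clec5a from 138 ± 1.15 to 59.8 ± 1.14 CPM. Sirpb1a fell by 1.00 on the log2 scale. Trem3 fell by 2.79 on that scale, with as few as 15 counts in a library. Of 6 tested genes for other immunoglobulin receptors and Fc receptor-like proteins, B2m and Fcrl1 rose, Fcrlb fell and 3 did not pass. Fcrlb, which flanks the receptor cluster on chromosome 1, went from 9.51 ± 0.280 to 7.79 ± 0.502 CPM.

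**Figure D4:**
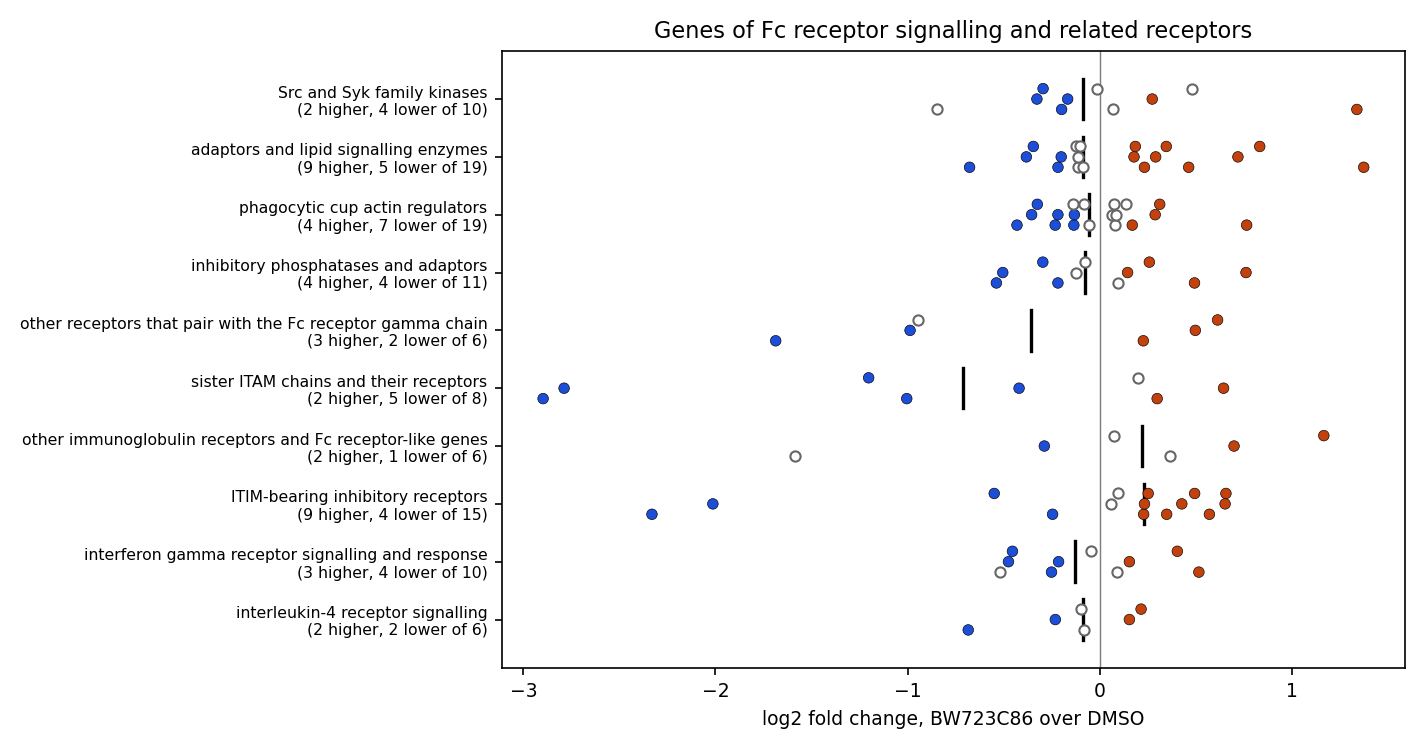
Log2 fold change, BW723C86 over DMSO, of every tested gene on the 10 lists of Fc receptor signalling and related receptors. Filled points passed the test (orange higher, blue lower), open points did not, and black bars are medians. The lists of kinases, adaptors, actin regulators and phosphatases have medians between -0.09 and -0.05 with members on both sides of 0.

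Over the 110 tested genes of these 10 lists, 40 rose, 38 fell and 32 did not pass, with a median log2 fold change of -0.03. The share past the threshold was 70.9%, beside 42% of all tested genes and 55.4% of those with at least 5 CPM in 3 libraries. The median over all tested genes was 0.00. The lists were written from textbook knowledge with earlier results of these data known, so their counts are a description of the pathway.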

How the data were processed

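RNA sequencing was deposited as a table of estimated counts per gene in 6 libraries, 3 per group, grouped by the sample titles. The submitters' processing notes name 4 tools (fastp, HISAT2, StringTie, edgeR) and 2 builds (GRCm39, GRCh38) with no version or role. The library protocol marks strand, and whether counting used it is not stated in the labels. The counts the authors deposited are whole numbers, so rounding changed none. Symbols for 27005 of 28822 identifiers came from GENCODE M21, which also gave transcript lengths. It describes another build than the files, so coordinates are given only for the RefSeq promoter windows, on GRCm38.p6.

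Differences were tested two-sided in R 4.3.3 with edgeR 4.0.16 (robust quasi-likelihood fit, TMM scaling, filterByExpr), and p-values were adjusted by Benjamini-Hochberg over 15567 genes, with a threshold of 0.05. The SE is the log2 fold change divided by the root of F. Adjusted p is edgeR's throughout. The fit was tested on simulated data. Ratios were compared with exact permutation tests (scipy 1.17.1). Alternatives were other scalings, filters, DESeq2 1.42.0, limma-voom (limma 3.58.1), a non-robust fit, counts divided by 4, a test against a fold change of 1.2, the replicate number as a block and each library left out.

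The members and lists were chosen with earlier results of these data known. Genes named are the 7 members, up to 4 genes of smallest p past the threshold and the most abundant of each list, leading genes of marker lists, and the 3 genes most like Fcrls, Fcgr4 and Fcer1g. Tmem119, P2ry12, Cd209a, Ms4a2, Trem2 and Hcst were named after their values were seen, as were genes listed at 0. The leading gene and summed level of the microglia markers are not reported here.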

Additional observations from a re-analysis of the deposited data

How the results depend on the processing

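Of 119 results for the 7 members under the alternatives, 115 kept their direction and side of the threshold. Fcgr4, Fcgrt and Fcrls passed under each alternative. Against a fold change of 1.2, 3 members passed (2 higher and 1 lower), Fcgr3 (log2 fold change 0.29) and Fcgr2b (-0.31) did not, and 3208 of all tested genes passed (20.6%), 1609 higher and 1599 lower. With library totals only in place of TMM, the log2 fold changes of Fcgr1 (-0.0227) and Fcer1g (-0.00225) changed sign without passing. Under that scaling 38.5% of the called genes were higher, against 50.8%, and the median of all genes was -0.07. Without each library in turn, 5 members passed, with 5387 to 7153 genes past in all. The log2 difference of the ratio of activating to inhibitory receptors ranged from 0.52 to 0.62 without each library. The ratio of chain to receptors ranged from -0.19 to -0.17, and was 0.19 without Fcgr3. Per kb of the median coding transcript, an alternative chosen after seeing the data, both ratios kept their direction.

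The labels do not say whether the replicate numbers pair the samples. Deviations from the group mean had correlations of 0.0310, -0.0247 and -0.00481 between same-numbered libraries. With 3 libraries per group, these values cannot settle whether equal numbers share a source. With the replicate number as a block, 6179 genes and the same number of members, 5, passed, and the log2 ratio difference of 0.56 had an exact permutation p of 0.25, the smallest that 3 pairs allow. Low counts pile up at multiples of 4, so the reads behind a count are uncertain. Counts divided by 4 left 5 members past.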
